A study of Rattus norvegicus with 24 samples.

Results

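The response of heart muscle cells to doxorubicin was described here in the arm of a larger experiment in which the cells carried a negative control mimic, a short RNA that stands in for a microRNA and has no intended target. The cells were neonatal rat ventricular myocytes, cells isolated and purified from the ventricles of newborn Sprague-Dawley rats and kept in culture in high glucose medium with horse and fetal bovine serum. All cells received a mimic at 5 nM each with the lipid reagent Lipofectamine RNAiMax on the day after plating, and 48 h after that the treated group was given doxorubicin and the untreated group vehicle, in both cases for 24 h. The dose is not settled here, being written as 4 uM with the samples but as 4 mM in the description of the series. The members are all 6 libraries with the control mimic, chosen by their labels, of 24 libraries in all: 3 with doxorubicin and 3 without. The other 18 carried a mimic of miR-222-3p, of miR-455-3p or both, with doxorubicin or vehicle, and serve below as a comparison that shares no library with these 6. The labels do not tie a replicate to an animal, a pool or a culture day, so the spread behind the p-values, estimated over all 24 libraries, may be technical.

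Doxorubicin is an anthracycline, a cancer drug that slips between DNA bases and traps type II topoisomerases on broken DNA. Its use is limited by damage to the heart, where the drug cycles electrons at its quinone group and accumulates in mitochondria. Newborn ventricular myocytes are a common model of that damage, and some of them still divide.

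PolyA RNA was sequenced, and the values are the authors' estimated counts per gene. The doxorubicin libraries held 17311949 to 22909157 counts and the untreated ones 19321093 to 21077058. Levels are in CPM, counts relative to library size after TMM scaling, a method that assumes most genes unchanged, and stand in the order of replicates 1, 2 and 3. In brackets a gene carries its log2 fold change, doxorubicin against vehicle, ± its standard error. "Rose", "fell" and "called" refer to an adjusted p (Benjamini-Hochberg, 14303 genes) below 0.05 in the quasi-likelihood test of edgeR, and "not called" to the rest. Beside a gene or a list, "on library totals" gives the same fit scaled by total counts alone.

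The libraries of each group differed among themselves. Mitochondrially encoded transcripts took 38.2%, 8.83% and 16.01% of the counts with doxorubicin and 20.3%, 13.5% and 9.11% without, and doxorubicin replicate 1, with the largest share, had the fewest genes at 10 counts or more (11469 against 12430 to 13524 in the other 5). TMM factors were 0.572 to 0.847 with doxorubicin and 1.11 to 1.30 without, with no overlap between the groups. Scaling by library totals lowered the median log2 fold change of all genes from 0.02 to -0.65 and turned 2171 higher and 1765 lower genes (55.2% of calls higher) into 1078 higher and 4697 lower (18.7% higher). Every direction below is therefore relative to the median gene.

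The cells carried the markers of their label, along with markers of fibroblasts. Summed over the cardiomyocyte list, the level was 35219, 37045 and 32864 CPM with doxorubicin and 23701, 22924 and 30159 CPM without. For fibroblast markers the sums were 24496, 55148 and 37008 CPM with doxorubicin and 19595, 20711 and 30271 CPM without. Smooth muscle and pericyte markers summed to 5011, 8504 and 6387 CPM with doxorubicin and 4966, 4600.2 and 5292 CPM without. Des, which is also in the Z disc list below, gave 2734, 4077 and 4412 CPM of these and 1034, 1082 and 1998 CPM without. Acta2 was lower, with 706, 1392 and 398 CPM with doxorubicin and 2757, 2269 and 1763 CPM without. Of the 10 tested smooth muscle and pericyte markers 2 rose and 1 fell. In every doxorubicin library 4 of them (Des, Cnn1, Tagln and Myh11) lay above the untreated range and 1 (Acta2) below it. Fibroblast and smooth muscle sums were highest in doxorubicin replicate 2, and their part in the results was not tested. Col1a1 alone gave 14856, 37437 and 25723 CPM of the fibroblast sums with doxorubicin. Pdgfra was lower, with 55.5, 32.2 and 58.2 CPM with doxorubicin and 95.6, 95.6 and 100.4 CPM without. Of 11 tested fibroblast markers, 2 (Pdgfra and Tcf21) lay below the untreated range in every doxorubicin library and 3 lay above it. Of the tested markers 3 of 12 for cardiomyocytes rose and 3 fell, and 3 of 11 for fibroblasts rose and 1 fell. Cardiomyocyte markers had 3 higher and 6 lower on library totals. Fibroblast markers had 2 higher and 3 lower on library totals, 5 higher and 1 lower without doxorubicin replicate 1, and 2 higher and 0 lower without doxorubicin replicate 2. Endothelial markers summed to 37.3 to 44.2 CPM with the drug and 48.0 to 68.2 CPM without, macrophage and leukocyte markers to 19.3 to 29.1 and 13.7 to 16.9 CPM, and Cldn5, an endothelial marker, and Hbb, a red cell marker, were at 0 in all 6 libraries. Kdr, a receptor for vascular endothelial growth factor, made up most of the untreated endothelial sum, with 13.3, 3.66 and 5.91 CPM with doxorubicin and 43.9, 45.8 and 31.2 CPM without it (log2 fold change -2.41 ± 0.64). In contrast 6 of the 7 tested endothelial markers had log2 fold changes above 0 (median 1.32), and Egfl7 and Tie1, not called, lay above the untreated range in all doxorubicin libraries. In bulk RNA, fewer cells of a type and less RNA per cell cannot be told apart.

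Among the genes tested 15.2% rose and 12.3% fell, 27.5% in all, and many of the genes that moved furthest were at or near 0 in one of the groups. List counts below are to be read beside these shares. A fit of only these 6 libraries took the spread from them alone. It called 1437 genes in place of 3936 and lost 95 of the 343 named calls tested there. The number of calls changed by over 1.5 times in 45 of 62 gene lists, and only some of those counts are given below. Nkx6-1, a homeobox transcription factor known from the pancreas and nervous system, had 9.39, 30.9 and 19.5 CPM with doxorubicin and 0 in each untreated library. Tmem200c, a transmembrane protein gene, had 11.8, 8.61 and 15.7 CPM with doxorubicin and 0 in each untreated library. Against a floor of 3 counts over the untreated group, pooled counts of Nkx6-1 were at least 525-fold higher and those of Tmem200c at least 279.8-fold higher. The other genes at 0 in all untreated libraries that were named by the same rule were Palm3 (at least 137-fold), Gsta2 (at least 162-fold) and Hsd11b2 (at least 157-fold). Gsta2, a glutathione transferase, and Hsd11b2, the enzyme that inactivates glucocorticoids, were uneven: Gsta2 had 21.0, 0.773 and 5.47 CPM with doxorubicin and 0 in each untreated library, and doxorubicin replicate 1 alone held most of it.

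Ltk, a receptor tyrosine kinase, and Ppp2r2c, a regulatory subunit of protein phosphatase 2A, were next to silent in untreated cells. Ltk had 3.23, 19.1 and 21.7 CPM with doxorubicin and 0, 0 and 0.134 CPM without it (log2 fold change 8.25 ± 0.95). Ppp2r2c had 9.99, 17.5 and 13.1 CPM with doxorubicin and 0, 0.0397 and 0.0447 CPM without it (log2 fold change 8.64 ± 0.80). The lowest doxorubicin library was above every untreated one for both genes. The rule also named Gpr50 (8.98 ± 1.12), Itpka (7.46 ± 1.25), Rbp2 (7.46 ± 1.09), Cst6 (7.19 ± 1.13) and Pcdh17 (5.92 ± 1.001) as higher: an orphan receptor related to melatonin receptors, an inositol trisphosphate kinase, a retinol binding protein, the protease inhibitor cystatin M and a protocadherin. 

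At the other end, A4galt, which makes the globotriaosyl lipid, had 9.20, 11.98 and 48.4 CPM in the untreated libraries and 0, 0.206 and 0.124 CPM after doxorubicin (log2 fold change -7.45 ± 0.96). Depp1, a FOXO-responsive gene, had 39.4, 43.6 and 73.3 CPM in the untreated libraries and 0, 0.979 and 0.249 CPM after doxorubicin (log2 fold change -6.80 ± 0.64). S1pr1, the receptor for sphingosine-1-phosphate, had 40.0, 44.1 and 33.3 CPM in the untreated libraries and 0, 0.722 and 1.31 CPM after doxorubicin (log2 fold change -5.75 ± 1.09). For these 3 genes the groups did not overlap, and doxorubicin replicate 1 was at 0. Gata5, a zinc finger factor of early heart and endocardium, fell by 5.28 ± 0.74 on the log2 scale, and B3galt2 (-5.96 ± 1.29), Clspn (-5.68 ± 0.96), Abra (-5.54 ± 1.10) and Gja5 (-5.52 ± 1.29) fell too; they encode a galactosyltransferase, the replication checkpoint adaptor claspin, an actin-binding activator of serum response factor signalling and connexin 40. Pdcd5, a gene linked to cell death, had 76.2, 14.0 and 4.60 CPM in the untreated libraries and 0, 0.619 and 0 CPM after doxorubicin (log2 fold change -6.99 ± 1.92, not called without replicate 1 of both groups at -4.82), and untreated replicate 1 was far above replicates 2 and 3.

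**Figure D1:**
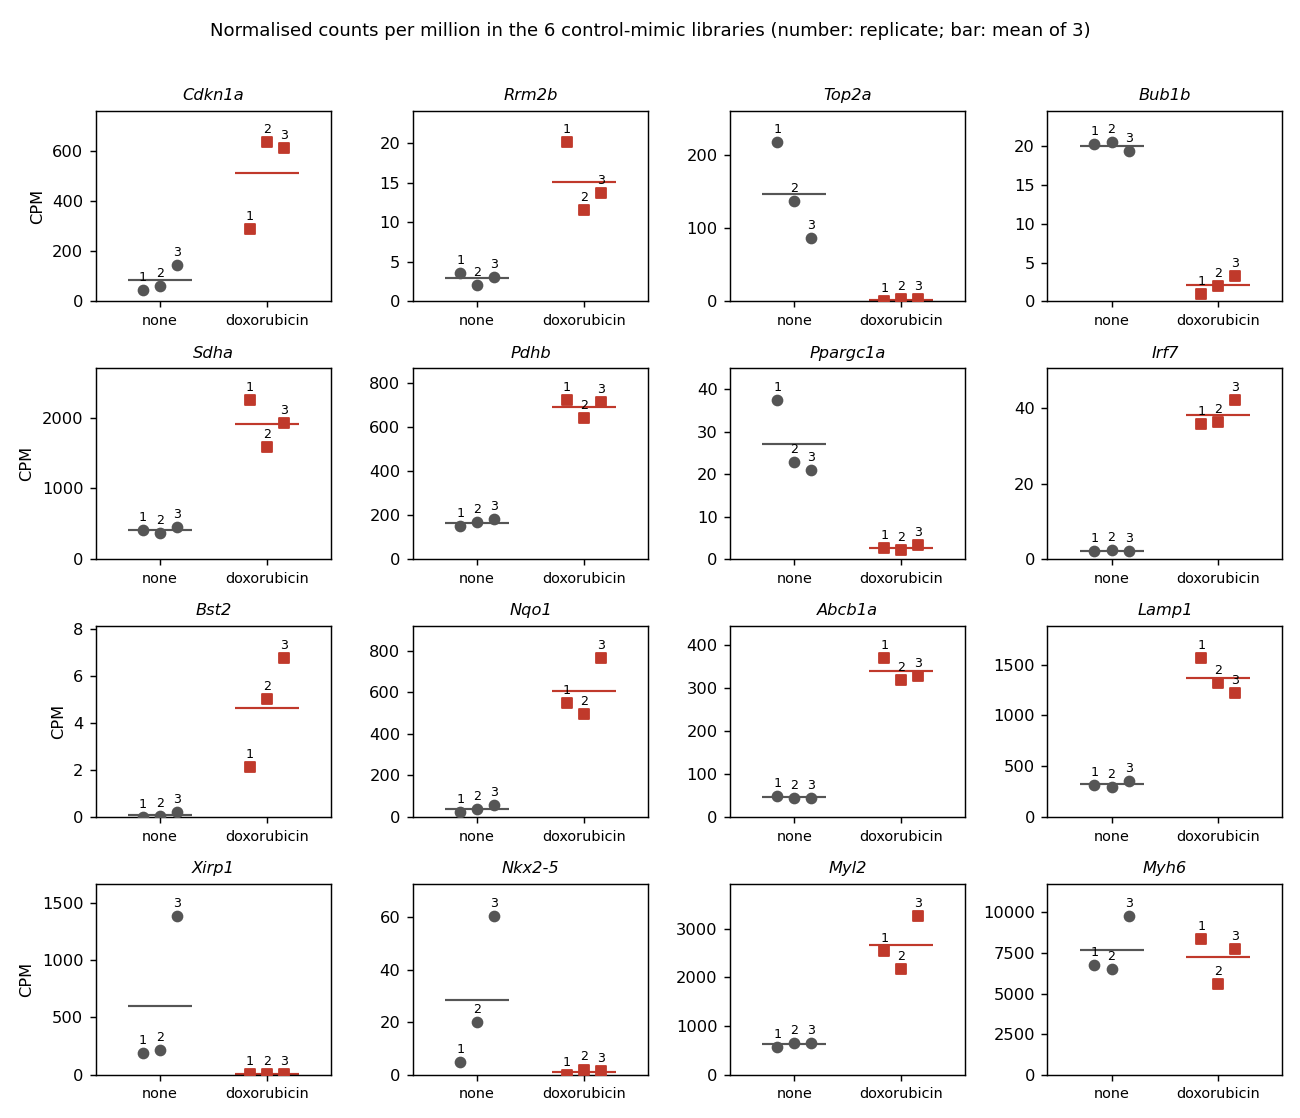
CPM (y axis, linear, from 0) of 16 genes in each library of the untreated (circles) and doxorubicin (squares) groups; the number at a point is the replicate and the bar is the mean of 3 libraries. The groups are apart for 15 of the 16 genes, while Myh6 overlaps.

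The p53 protein, stabilised when DNA breaks, switches on genes that halt the cycle, repair DNA or start death. Of 29 measured p53 arrest and survival targets 8 rose and 0 fell, with a median log2 fold change of 0.51 that turned to -0.17 on library totals. These counts were 6 higher and 6 lower on library totals. Cdkn1a, which encodes the cyclin-dependent kinase inhibitor p21, had 288, 634 and 613 CPM with doxorubicin and 46.5, 61.9 and 146 CPM without it (log2 fold change 2.59 ± 0.61). Doxorubicin replicate 1 was the lowest of its group and still above the highest untreated library. Mdm2, the ligase that marks p53 for destruction, had 433, 268 and 256 CPM with doxorubicin and 108, 68.9 and 84.6 CPM without it (log2 fold change 1.87 ± 0.45), and here replicate 1 was the highest. Rrm2b, a ribonucleotide reductase subunit for DNA repair outside S phase, had 20.1, 11.6 and 13.7 CPM with doxorubicin and 3.62, 2.10 and 3.08 CPM without it (log2 fold change 2.36 ± 0.29). Also higher were Tp53inp1 (1.93 ± 0.40), Ei24 (1.33 ± 0.17), Pltp (2.81 ± 0.54) and Aen (1.65 ± 0.39, not called on library totals at 0.99): a p53 cofactor, an autophagy-linked protein of the endoplasmic reticulum, a phospholipid transfer protein and an apoptosis-enhancing nuclease.

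Top2a, the topoisomerase of dividing cells, had 217, 137 and 86.8 CPM in the untreated libraries and 0, 2.83 and 3.36 CPM after doxorubicin (log2 fold change -6.09 ± 0.88), with no overlap between groups. Of 15 topoisomerases and adduct repair genes 1 rose and 2 fell (median -0.19): Topbp1 (-1.95 ± 0.36), an activator of the ATR kinase, fell beside Top2a, and Xrcc1 (1.43 ± 0.49, not called on library totals at 0.78, without replicate 1 of both groups at 1.30, without doxorubicin replicate 2 at 1.32, without doxorubicin replicate 3 at 1.24, without untreated replicate 1 at 0.97 or without untreated replicate 2 at 1.36), a scaffold of single-strand break repair, rose. The numbers of genes were 0 higher and 7 lower on library totals, and 2 higher and 3 lower without doxorubicin replicate 1. Top1, the type I enzyme, was at -0.77 ± 0.43, not called. Of 20 damage kinases and checkpoint mediators 1 rose and 5 fell (median -0.47). The fallen genes included Wee1 (-1.85 ± 0.35), Rad17 (-1.001 ± 0.24) and Hus1 (-1.18 ± 0.27), which encode the kinase that holds back mitosis and a loader and a ring subunit of the checkpoint clamp, and the riser, Tp73, a p53 relative, rested on few counts, with 0, 1.34 and 0.311 CPM with doxorubicin and 0 in each untreated library. The list counts changed to 1 higher and 13 lower on library totals, and 0 higher and 3 lower without doxorubicin replicate 2. Of 14 histone genes 5 rose and 0 fell (median 0.62, -0.06 on library totals); Hist1h1c, a linker histone, had 44.8, 132 and 120.0 CPM with doxorubicin and 4.90, 19.0 and 13.5 CPM without it (log2 fold change 2.99 ± 0.64), with the groups apart, and Hist1h2bd, also higher, was below 2 CPM in all 6 libraries. Its counts became 2 higher and 2 lower on library totals, and 3 higher and 0 lower without replicate 1 of both groups, without untreated replicate 1 or without untreated replicate 2. Histone genes have near-identical copies between which the counting could split reads.

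Of 40 kinetochore and spindle genes 32 fell and 0 rose, with a median log2 fold change of -2.15, against 12.3% of all genes lower and an overall median of 0.02. Of 33 cyclins, CDKs and mitotic kinases 14 fell and 2 rose (median -1.07), and of 36 genes of origin licensing and the replication fork 17 fell and 1 rose (median -1.19). The cyclin list had 0 higher and 24 lower on library totals. The replication list had 0 higher and 10 lower without replicate 1 of both groups, and 0 higher and 11 lower without doxorubicin replicate 3. In a fit of only the 6 libraries the replication list had 0 higher and 5 lower. The kinetochore list had 0 higher and 21 lower in that fit, and the cyclin list 1 higher and 8 lower. The riser of the replication list was the single-strand binding protein gene Rpa1 and those of the cyclin list were the G1 cyclins Ccnd1 and Ccnd2, named here after their values were seen.

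Bub1b, a kinase of the spindle checkpoint, had 20.3, 20.4 and 19.3 CPM in the untreated libraries and 0.909, 2.01 and 3.23 CPM after doxorubicin (log2 fold change -3.26 ± 0.38). The untreated libraries were close to each other and each doxorubicin library lay far below them. Cenpf, an outer kinetochore protein, had 109.7, 80.4 and 47.7 CPM in the untreated libraries and 8.68, 3.40 and 3.48 CPM after doxorubicin (log2 fold change -3.95 ± 0.49). Racgap1, which organises the cleavage furrow, had 27.5, 27.01 and 28.9 CPM in the untreated libraries and 0, 2.22 and 1.06 CPM after doxorubicin (log2 fold change -4.58 ± 0.59). In the untreated group Cenpf was highest in replicate 1 and lowest in replicate 3 while the untreated libraries of Racgap1 lay within 27.01 to 28.9 CPM. Cdk1, the kinase that drives entry into mitosis, had 34.7, 33.3 and 34.6 CPM without the drug and 1.01, 1.29 and 2.55 CPM with it (log2 fold change -4.38 ± 0.71), and Plk1, a mitotic kinase, 25.3, 23.4 and 32.7 CPM without the drug and 2.52, 5.41 and 2.92 CPM with it (log2 fold change -2.89 ± 0.41). The groups were apart for both. Among the rest Tpx2 (-3.40 ± 0.42), Kif15 (-3.36 ± 0.43) and Anln (-2.55 ± 0.34) (a spindle assembly factor, a spindle motor and the contractile ring protein anillin) and Ccna2 (-4.36 ± 0.70), Plk4 (-3.75 ± 0.68), Ube2c (-3.97 ± 0.66) and Melk (-5.26 ± 0.92) (cyclin A2, the centriole duplication kinase, the ubiquitin carrier of the anaphase-promoting complex and a mitotic kinase) fell. In the licensing group, Mcm5, a subunit of the replicative helicase, had 25.9, 37.0 and 23.4 CPM without the drug and 2.83, 3.76 and 4.91 CPM with it (log2 fold change -2.90 ± 0.50), with the groups apart. Lower as well were Mcm10 (-3.45 ± 0.74), Mcm2 (-1.55 ± 0.25), Pola1 (-1.86 ± 0.40), Pola2 (-2.29 ± 0.48) and Fen1 (-2.01 ± 0.42): a helicase activator, another helicase subunit, 2 subunits of DNA polymerase alpha and the flap endonuclease.

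Genes of mitosis and of replication are known to differ in their promoter elements, so stretches of promoters are shown for some of each. Plk1 and Cdk1 are not in the kinetochore and spindle list that is counted below. They come from RefSeq on the rat build GRCr8, run 5′ to 3′ on the gene's strand, and carry these motifs in capitals, on either strand: the cell cycle homology region (TTTGAA) and the CCAAT box (CCAAT) for Cenpf, Plk1 and Cdk1, TTTGAA alone for Anln, and the E2F site (TTCCCGC) with CCAAT for Mcm5 and Pola1. Cenpf lies at chr13:103760877-103761026 (minus strand), Anln at chr8:29197504-29197603 (minus), Plk1 at chr1:186147588-186147687 (plus), Cdk1 at chr20:19265193-19265292 (plus), Mcm5 at chr19:13488713-13488822 (plus) and Pola1 at chrX:62342406-62342525 (minus).
Cenpf: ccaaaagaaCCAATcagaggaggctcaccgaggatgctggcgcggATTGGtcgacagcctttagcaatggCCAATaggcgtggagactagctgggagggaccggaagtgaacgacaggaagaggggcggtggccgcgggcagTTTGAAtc
Anln: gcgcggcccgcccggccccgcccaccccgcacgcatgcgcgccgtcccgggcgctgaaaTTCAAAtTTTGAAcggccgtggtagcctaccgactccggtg
Plk1: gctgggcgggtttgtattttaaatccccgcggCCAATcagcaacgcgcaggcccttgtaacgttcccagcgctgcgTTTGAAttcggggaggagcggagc
Cdk1: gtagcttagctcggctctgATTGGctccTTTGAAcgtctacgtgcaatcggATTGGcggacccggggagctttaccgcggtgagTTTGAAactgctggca
Mcm5: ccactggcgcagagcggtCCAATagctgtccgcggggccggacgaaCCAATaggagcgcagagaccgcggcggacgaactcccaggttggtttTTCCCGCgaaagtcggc
Pola1: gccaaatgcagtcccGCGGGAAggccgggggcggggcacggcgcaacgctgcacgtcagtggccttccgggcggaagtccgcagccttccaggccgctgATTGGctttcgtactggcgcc

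Each promoter window searched ran from 250 bases before the annotated start to 50 after it, and 10228 of the 14303 tested genes (71.5%) had one. TTTGAA was in 17 of the 25 fallen kinetochore and spindle genes with a window and in 3 of the 7 that were not called, against 18.3% of all 33469 windows and 11.5% of those of tested genes. In the replication list it was in 1 of 13 fallen genes. TTCCCGC was in 5 of those 13 and in 1 of the 25 kinetochore genes, against 4.21% of all windows and 8.29% of tested genes, and CCAAT in 9 of 13 and 17 of 25, against 37.5% and 37.2%. These are descriptions of letters in a window, not of bound sites, and within each list genes that did not fall held the same motifs.

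The respiratory chain passes electrons from fuel through complexes I to IV to oxygen, and ATP synthase uses the proton gradient that results. 25 of 35 complex I genes rose and 0 fell (median 1.59). For complexes II and III with cytochrome c the count was 14 of 14 (median 2.06), for complex IV 13 of 14 (median 2.02) and for ATP synthase 13 of 14 (median 1.73), and none of these 4 lists had a fallen member. In the citric acid cycle and pyruvate dehydrogenase list 21 of 25 rose and 1 fell (median 2.05). On library totals the 5 medians were 0.88, 1.32, 1.32, 1.03 and 1.29, so their direction held under both scalings. Complex I had 18 higher and 3 lower on library totals. In a fit of only the 6 libraries the 5 lists had 17, 10, 6, 9 and 16 higher, in the same order, and 0 lower.

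Sdha, the flavin subunit of succinate dehydrogenase, had 2245, 1579.7 and 1920.0 CPM with doxorubicin and 410.4, 373 and 457 CPM without it (log2 fold change 2.21 ± 0.18). Ndufa10, an accessory subunit of complex I, had 807, 575 and 774 CPM with doxorubicin and 129.5, 140.2 and 173 CPM without it (log2 fold change 2.28 ± 0.20). Atp5f1b, the catalytic beta subunit of ATP synthase, had 8761, 11562 and 13680.2 CPM with doxorubicin and 1469.9, 1984 and 3109 CPM without it (log2 fold change 2.37 ± 0.32). Between the nearest libraries of the groups the gap was 3.46-fold for Sdha, 3.32-fold for Ndufa10 and 2.82-fold for Atp5f1b. Other risers were Ndufs1 (2.01 ± 0.23) and Ndufb2 (2.38 ± 0.37) in complex I, Uqcrc2 (2.08 ± 0.22) and Uqcrfs1 (2.34 ± 0.32) in complex III and Cox6b1 (2.33 ± 0.35), Cox7c (2.28 ± 0.36) and Ndufa4 (2.19 ± 0.28) in complex IV. Mdh2, mitochondrial malate dehydrogenase, had 2293, 1938 and 2269 CPM in the doxorubicin libraries and 388, 442 and 479 CPM in the untreated ones (log2 fold change 2.31 ± 0.19). Pdhb, the beta subunit of pyruvate dehydrogenase, had 721, 641 and 713 CPM in the doxorubicin libraries and 151, 167 and 181 CPM in the untreated ones (log2 fold change 2.05 ± 0.15; edgeR, Benjamini-Hochberg adjusted p = 7.91e-08), with the groups far apart. Idh3g, Idh3b, Suclg2 and Dlat, further enzymes of the cycle and its entry, were at 2.06 ± 0.17, 2.17 ± 0.21, 1.96 ± 0.17 and 1.95 ± 0.18, all called.

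Of 42 respiratory assembly factors 17 rose and 3 fell (median 0.83, 0.07 on library totals). This list had 5 higher and 8 lower on library totals, 11 higher and 2 lower without untreated replicate 2, and 9 higher and 3 lower without untreated replicate 3. Acad9, which helps assemble complex I, had 99.8, 108 and 109.7 CPM with doxorubicin and 25.5, 32.3 and 28.2 CPM without it (log2 fold change 1.88 ± 0.16), whereas Ndufaf4, another complex I assembly factor, had 7.77, 7.68 and 11.5 CPM with doxorubicin and 54.8, 46.3 and 40.1 CPM without it (log2 fold change -2.39 ± 0.35). Both were without overlap and lay on opposite sides of 0. Also higher were Cox15 (1.58 ± 0.17), Cox17 (2.53 ± 0.48) and Atpaf2 (2.47 ± 0.30), factors for heme a, for copper delivery to complex IV and for ATP synthase. Of 75 mitochondrial ribosomal protein genes 30 rose and 4 fell (median 0.69, -0.03 on library totals), with Mrpl16 (2.23 ± 0.21), Mrpl37 (1.62 ± 0.15) and Mrps36 (1.88 ± 0.26) among the risers. These counts were 9 higher and 16 lower on library totals, and 11 higher and 2 lower in a fit of only the 6 libraries.

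Regulators of mitochondrial biogenesis were among the genes that fell. Ppargc1a, the coactivator PGC-1alpha that drives transcription of respiratory genes, had 37.4, 23.0 and 20.9 CPM without the drug and 2.73, 2.11 and 3.36 CPM with it (log2 fold change -3.31 ± 0.47). Esrrg, the nuclear receptor ERR-gamma, had 135, 76.3 and 47.4 CPM without the drug and 2.02, 4.28 and 5.35 CPM with it (log2 fold change -4.46 ± 0.77), and Ppargc1b, the related coactivator, 11.4, 17.3 and 69.2 CPM without the drug and 4.85, 6.65 and 5.35 CPM with it (log2 fold change -2.53 ± 0.62, not called without untreated replicate 3 at -1.41). No doxorubicin library reached an untreated one for any of these 3, and untreated replicate 3 was the highest for Ppargc1b and the lowest for Ppargc1a and Esrrg. Over the whole list of biogenesis, fusion and fission 7 of 27 rose and 6 fell (median -0.05), with Bnip3l (1.43 ± 0.31) and Fis1 (1.03 ± 0.21, not called on library totals at 0.32), a mitophagy receptor and a fission factor, higher. The numbers of genes were 1 higher and 10 lower on library totals, 3 higher and 6 lower without replicate 1 of both groups (median -0.06) or without untreated replicate 2 (median -0.29), 0 higher and 2 lower in a fit of only the 6 libraries (median -0.02), 3 higher and 7 lower without doxorubicin replicate 1 (median -0.35), 5 higher and 7 lower without doxorubicin replicate 3 (median -0.30), and 4 higher and 7 lower without untreated replicate 1 (median -0.33). Of 13 transcripts encoded in mitochondrial DNA 2 rose and 0 fell, with a median of 1.21. Mt-co1, subunit 1 of complex IV, had 314341, 67977 and 103566 CPM with doxorubicin and 68989, 43090.2 and 35786 CPM without it: doxorubicin replicate 1 was far above the other libraries, doxorubicin replicate 2 lay below untreated replicate 1, and the log2 fold change was 1.72 ± 0.48, not called on library totals at 0.87, without replicate 1 of both groups at 1.12, without doxorubicin replicate 1 at 0.80, without untreated replicate 2 at 1.56 or without untreated replicate 3 at 1.47. The list counts changed to 0 higher and 0 lower on library totals, without replicate 1 of both groups, in a fit of only the 6 libraries, without doxorubicin replicate 1, without untreated replicate 2 or without untreated replicate 3, 5 higher and 0 lower without doxorubicin replicate 2, and 1 higher and 0 lower without doxorubicin replicate 3 or without untreated replicate 1. In the promoters of risers, the NRF1 site GCGCATGCG (either strand) was in 1 of 24 complex I genes and 3 of 12 ATP synthase genes with a window, against 1.52% of all windows and 3.15% of those of tested genes.

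**Figure D2:**
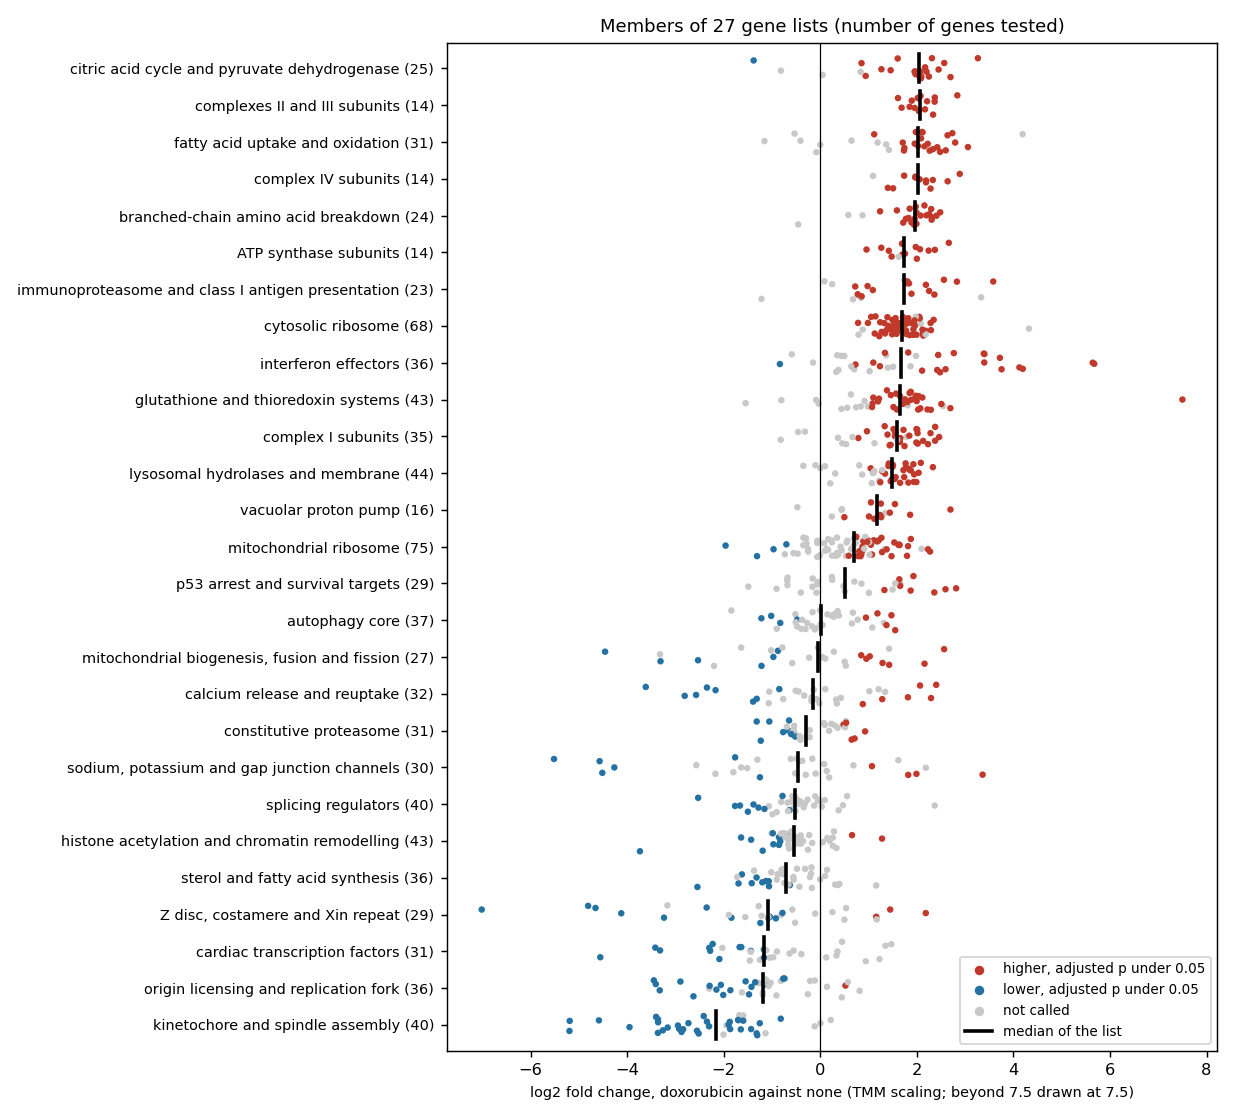
Log2 fold change (x axis) of each tested member of 27 gene lists (rows, number of tested genes in brackets), with called genes in colour and the list median as a black bar. Medians of the respiratory, ribosomal, interferon and lysosomal lists lie to the right of 0 and those of the mitotic, replication and cardiac transcription factor lists to the left. The median for mitochondrial biogenesis, fusion and fission is near 0 (-0.05).

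Many genes of fuel pathways that feed the cycle rose. Branched-chain amino acid breakdown had 21 of 24 genes higher and 0 lower (median 1.97), and fatty acid uptake and oxidation, the main fuel route of the adult heart, 21 of 31 higher and 0 lower (median 2.03). Acat1, the mitochondrial thiolase, had 792, 601 and 753 CPM with doxorubicin and 143, 133 and 157 CPM without it (log2 fold change 2.31 ± 0.17; edgeR, Benjamini-Hochberg adjusted p = 6.86e-08). Bckdhb, a subunit of the branched-chain dehydrogenase, had 118, 84.2 and 128 CPM in the doxorubicin libraries and 19.0, 21.1 and 22.1 CPM in the untreated ones (log2 fold change 2.41 ± 0.21). Both had groups far apart, and Bckdk, the kinase that switches that dehydrogenase off, rose as well (1.72 ± 0.14). Pcca, Mccc1 and Auh, which act further down valine, isoleucine and leucine breakdown, were at 2.30 ± 0.24, 1.77 ± 0.19 and 1.99 ± 0.20, all called. In fatty acid oxidation, Acadm (2.33 ± 0.22), Etfa (2.27 ± 0.21), Hadh (2.42 ± 0.29), Decr1 (2.22 ± 0.21) and Cpt2 (1.73 ± 0.22) rose: medium-chain acyl-CoA dehydrogenase, an electron transfer flavoprotein, a beta-oxidation dehydrogenase, the dienoyl-CoA reductase and the inner carnitine palmitoyltransferase.

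Of 36 genes of sterol and fatty acid synthesis 10 fell and 0 rose (median -0.70). Hmgcs1, which makes the substrate of the pathway's committed step, had 196, 242 and 177 CPM in the untreated libraries and 55.6, 73.2 and 70.6 CPM after doxorubicin (log2 fold change -1.62 ± 0.30). Sqle, squalene epoxidase, had 83.9, 95.1 and 119.7 CPM in the untreated libraries and 41.7, 26.3 and 24.4 CPM after doxorubicin (log2 fold change -1.69 ± 0.44). The highest doxorubicin library was below the lowest untreated one for both. Fads1, a fatty acid desaturase, fell by 1.42 ± 0.23 on the log2 scale. Its counts became 0 higher and 21 lower on library totals.

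Of 68 cytosolic ribosomal protein genes 61 rose and 0 fell (median 1.68, 0.93 on library totals). Genes whose symbol is Rpsa or begins with Rplp, or with Rpl or Rps and a digit, took 5.24% to 6.91% of the counts with doxorubicin. Without it they took 2.95% to 3.41%. That set was drawn by symbol and is not the same as the list. Rpl37a had 1466, 991 and 1187 CPM with doxorubicin and 274, 208 and 262 CPM without it (log2 fold change 2.29 ± 0.21), Rpl14 1353, 1260.3 and 1446 CPM with doxorubicin and 316, 315 and 411 CPM without it (log2 fold change 1.96 ± 0.22) and Rps9 747, 782 and 827 CPM with doxorubicin and 238, 260.0 and 318 CPM without it (log2 fold change 1.53 ± 0.19). The nearest libraries of the groups were 3.61-fold, 3.06-fold and 2.35-fold apart. Ribosomal protein genes have many processed copies in the genome, so their reads may have been shared with those. The constitutive proteasome, which degrades marked proteins, had 5 of 31 genes higher and 8 lower (median -0.29, -1.03 on library totals). The calls changed to 0 higher and 18 lower on library totals, and 4 higher and 5 lower without doxorubicin replicate 3. Psmd14, the deubiquitinase of its lid, had 91.5, 56.8 and 49.3 CPM in the untreated libraries and 26.9, 25.0 and 27.4 CPM after doxorubicin (log2 fold change -1.32 ± 0.26). Psmd12, another lid subunit, had 118, 96.7 and 93.9 CPM in the untreated libraries and 60.3, 46.5 and 41.6 CPM after doxorubicin (log2 fold change -1.06 ± 0.23). Both fell without overlap. Psmb1, a core subunit, had 188, 152 and 180.3 CPM with doxorubicin and 97.6, 111 and 122 CPM without it (0.65 ± 0.15), and its direction turned on library totals (-0.07).

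Interferon signalling passes from sensors of foreign or misplaced nucleic acid through IRF and STAT factors to a set of antiviral effectors and to antigen presentation. 20 of 36 interferon effectors rose and 1 fell (median 1.66, 0.996 on library totals). The same list had 12 higher and 1 lower on library totals. In the immunoproteasome and class I list 15 of 23 rose and 0 fell (median 1.74, 1.02 on library totals). The counts became 8 higher and 0 lower on library totals. Sensors and signalling genes had 6 of 34 higher and 4 lower, against 15.2% and 12.3% of all genes tested (median 0.36, -0.42 on library totals). This list had 4 higher and 10 lower on library totals.

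Irf7, the factor that amplifies the interferon response, had 35.7, 36.3 and 42.0 CPM with doxorubicin and 2.13, 2.50 and 2.10 CPM without it (log2 fold change 4.08 ± 0.36; edgeR, Benjamini-Hochberg adjusted p = 2.30e-07). The libraries within each group differed little against the gap between groups. Bst2, the tether of enveloped viruses, had 2.12, 5.05 and 6.78 CPM with doxorubicin and 0, 0.0397 and 0.223 CPM without it (log2 fold change 5.67 ± 0.89), and Rsad2, the antiviral enzyme viperin, 9.39, 8.81 and 6.34 CPM with doxorubicin and 0.341, 1.51 and 0.447 CPM without it (log2 fold change 3.40 ± 0.58). Gbp2, a guanylate-binding GTPase, had 75.9, 37.6 and 57.2 CPM with doxorubicin and 8.13, 2.66 and 2.14 CPM without it (log2 fold change 3.72 ± 0.46), with the lowest doxorubicin library above the highest untreated one. Also higher were Mx2 (3.75 ± 0.80), Gbp5 (3.39 ± 0.58), Lgals3bp (2.11 ± 0.32), Dhx58 (3.67 ± 0.80) and Irf8 (2.97 ± 0.58): an antiviral GTPase, another guanylate-binding protein, a secreted galectin ligand, the RNA sensor LGP2 and an interferon regulatory factor. The DNA sensor Cgas (-1.27 ± 0.88) and its partner Tmem173, which encodes STING (-0.47 ± 0.81), did not pass, and both were below 6 CPM in all libraries. Receptors and STAT3 fell: Ifnar1 (-0.75 ± 0.17), Ifngr2 (-1.52 ± 0.36) and Stat3 (-1.65 ± 0.19).

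For class I antigen presentation, B2m, the light chain of class I molecules, had 1884, 847 and 731 CPM with doxorubicin and 469, 313 and 208 CPM without it (log2 fold change 1.81 ± 0.39). RT1-CE5, a rat class I heavy chain, had 71.8, 136 and 165 CPM with doxorubicin and 7.03, 17.3 and 28.1 CPM without it (log2 fold change 2.83 ± 0.50), and Psme1, an activator of the immunoproteasome, 429, 370.4 and 402 CPM with doxorubicin and 86.5, 117 and 133 CPM without it (log2 fold change 1.84 ± 0.19). B2m was highest in replicate 1 of either group and RT1-CE5 lowest there, with no overlap between the groups. RT1-A1 (2.36 ± 0.48) and RT1-CE10 (2.25 ± 0.39) rose too. RT1 genes are near-identical copies, and how the authors' counting split reads between them is not known here.

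Promoter stretches of 6 of these risers show the core of the interferon-stimulated response element, searched as GAAANNGAA on either strand and set in capitals. They are from RefSeq on GRCr8: Irf7 at chr1:205800034-205800133 (minus strand), Bst2 at chr16:18255038-18255137 (minus), Rsad2 at chr6:48788211-48788310 (minus), Gbp2 at chr2:234005647-234005746 (plus), Lgals3bp at chr10:104127839-104127938 (minus) and B2m at chr3:129549140-129549239 (plus).
Irf7: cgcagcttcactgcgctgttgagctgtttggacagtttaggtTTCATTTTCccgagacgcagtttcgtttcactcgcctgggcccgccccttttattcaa
Bst2: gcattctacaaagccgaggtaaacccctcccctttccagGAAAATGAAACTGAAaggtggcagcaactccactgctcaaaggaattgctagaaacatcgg
Rsad2: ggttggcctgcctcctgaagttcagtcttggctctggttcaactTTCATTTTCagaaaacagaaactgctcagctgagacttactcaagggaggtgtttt
Gbp2: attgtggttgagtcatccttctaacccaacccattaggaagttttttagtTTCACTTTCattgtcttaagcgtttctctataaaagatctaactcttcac
Lgals3bp: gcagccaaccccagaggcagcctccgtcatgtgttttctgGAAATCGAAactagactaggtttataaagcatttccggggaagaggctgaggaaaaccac
B2m: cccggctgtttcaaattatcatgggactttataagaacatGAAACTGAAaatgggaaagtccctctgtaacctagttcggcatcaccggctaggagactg

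In Bst2 the run of capitals holds 2 overlapping matches. The core was in 12 of the 17 risen interferon effectors with a window and in 11 of the 12 that were not called, against 9.71% of all windows and 6.89% of those of tested genes. For the class I list it was in 5 of 13 risers and 4 of 7 not called. Irf7 belongs to neither list and is not in these counts. The motif was thus found in members that rose and in members that were not called.

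Among secreted immune proteins, 13 of 27 complement and chemokine genes were higher and 1 lower (median 1.90). Cxcl10, a chemokine for T cells, had 27.6, 14.7 and 16.5 CPM with doxorubicin and 2.34, 1.51 and 2.28 CPM without it (log2 fold change 3.26 ± 0.50). C1s, a protease of the classical complement pathway, had 71.2, 33.8 and 50.2 CPM with doxorubicin and 12.6, 9.16 and 8.89 CPM without it (log2 fold change 2.34 ± 0.31), and C1r, its partner, 156, 193 and 179 CPM with doxorubicin and 52.0, 53.2 and 65.8 CPM without it (log2 fold change 1.63 ± 0.25). The groups were apart for the 3 genes. The inhibitors of complement Cd59 (1.91 ± 0.19) and Serping1 (1.605 ± 0.26) rose as well. Of 9 tested macrophage and leukocyte markers 2 rose and 0 fell. Cd14, a co-receptor for lipopolysaccharide, had 14.2, 13.7 and 10.9 CPM with doxorubicin and 3.83, 4.48 and 4.73 CPM without it (log2 fold change 1.57 ± 0.29), 2.30-fold apart between the nearest libraries, and Fcer1g, an Fc receptor chain, was at most 1.62 CPM (3.42 ± 1.21, not called on library totals at 2.68, without replicate 1 of both groups at 2.53, without doxorubicin replicate 1 at 3.09, without doxorubicin replicate 2 at 3.51, without doxorubicin replicate 3 at 3.61, without untreated replicate 1 at 2.78 or without untreated replicate 2 at 3.21). Csf1r, their defining receptor, was at most 2.02 CPM and Cd68 at most 2.99 CPM in any of the 6 libraries, and neither was called. 

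Carbonyl and quinone reductases convert anthracyclines to alcohols or to hydroquinones, and 12 of 23 genes of that list rose and 1 fell (median 1.17). These counts were 8 higher and 4 lower on library totals. Nqo1, the quinone reductase controlled by NRF2, had 549, 497 and 764 CPM with doxorubicin and 24.0, 38.8 and 56.1 CPM without it (log2 fold change 3.93 ± 0.44). Akr1b10, an aldo-keto reductase, had 327, 187 and 278 CPM with doxorubicin and 19.3, 17.3 and 18.7 CPM without it (log2 fold change 3.84 ± 0.32), and Ephx1, an epoxide hydrolase, 90.0, 155 and 147 CPM with doxorubicin and 10.8, 17.1 and 15.4 CPM without it (log2 fold change 3.18 ± 0.30). The nearest libraries of the groups were 8.86-fold, 9.67-fold and 5.28-fold apart. The classical carbonyl reductases Cbr1 (0.56 ± 0.95) and Cbr3 (0.92 ± 0.45) were not called: Cbr1 had 0.404, 8.97 and 21.9 CPM with doxorubicin and 3.96, 5.87 and 11.5 CPM without it, with overlap. Hmox1, heme oxygenase 1, likewise was not called (-1.55 ± 1.21), and untreated replicate 3 had 201 CPM and the other 5 libraries at most 34.7.

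The glutathione and thioredoxin systems, which remove peroxides, had 30 of 43 genes higher and 0 lower (median 1.65, 0.93 on library totals). Prdx3, the mitochondrial peroxiredoxin, had 415, 359.8 and 454 CPM with doxorubicin and 81.9, 77.5 and 105 CPM without it (log2 fold change 2.22 ± 0.19). Sod2, the mitochondrial superoxide dismutase, had 376, 339 and 448 CPM with doxorubicin and 88.1, 74.3 and 107 CPM without it (log2 fold change 2.11 ± 0.28). The gap between nearest libraries was 3.44-fold for Prdx3 and 3.18-fold for Sod2. Prdx1, Prdx4, Txn1 and Gstm2 (peroxiredoxins, thioredoxin and a glutathione transferase) were at 1.87 ± 0.25, 1.80 ± 0.16, 1.71 ± 0.22 and 2.03 ± 0.23, all called. Of 14 ABC exporters and anthracycline uptake genes 6 rose and 0 fell (median 0.93). The numbers of genes were 2 higher and 1 lower on library totals, and 3 higher and 0 lower without untreated replicate 1. Abcb1a, which encodes P-glycoprotein, the exporter of anthracyclines, had 370.5, 319 and 328 CPM with doxorubicin and 49.9, 45.3 and 44.7 CPM without it (log2 fold change 2.86 ± 0.30), a gap of 6.39-fold between the nearest libraries. 

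Of the iron genes, 9 of 32 iron and haem genes were higher and 3 lower (median 0.50, -0.21 on library totals). The list counts changed to 3 higher and 8 lower on library totals. Fth1, the ferritin heavy chain that stores iron, had 5287, 3639.8 and 4984 CPM with doxorubicin and 906, 755 and 1194 CPM without it (log2 fold change 2.28 ± 0.24). Tfrc, the transferrin receptor that imports it, had 1319.8, 457 and 877 CPM with doxorubicin and 262, 216 and 191 CPM without it (log2 fold change 1.99 ± 0.37). Store and importer were both higher in every doxorubicin library than in any untreated one. Nfs1, the desulfurase of iron-sulfur cluster assembly, rose (2.36 ± 0.19), and Ireb2, the iron-sensing regulator of ferritin and receptor mRNA, fell (-0.90 ± 0.16).

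Of 44 lysosomal hydrolases and membrane proteins 31 rose and 0 fell (median 1.49, 0.79 on library totals), and of 16 subunits of the vacuolar proton pump, which acidifies the lysosome, 11 rose and 0 fell (median 1.18, 0.41 on library totals). The pump had 4 higher and 1 lower on library totals, and 7 higher and 0 lower without untreated replicate 2. Lamp1, a membrane glycoprotein, had 1565, 1317 and 1217 CPM with doxorubicin and 319, 299 and 350.4 CPM without it (log2 fold change 2.08 ± 0.18). Tpp1, a lysosomal peptidase, had 245, 216 and 206 CPM with doxorubicin and 64.8, 66.8 and 68.3 CPM without it (log2 fold change 1.74 ± 0.15), and Atp6ap1, an accessory protein of the pump, 636, 644 and 622 CPM with doxorubicin and 152, 183 and 189 CPM without it (log2 fold change 1.86 ± 0.22). The groups were far apart for the 3. The cathepsins Ctsb (1.82 ± 0.20), Ctsh (1.51 ± 0.16) and Ctsl (1.65 ± 0.20) and the mannosidase Man2b1 (1.49 ± 0.16) rose too. Of 37 autophagy genes 5 rose and 4 fell, against 15.2% and 12.3% of all genes tested (median 0.01, -0.69 on library totals). Becn1 (1.55 ± 0.18), Map1lc3b (1.37 ± 0.19) and Atg12 (1.47 ± 0.24), which act in autophagosome formation, were among the higher ones. Atg5 (-1.22 ± 0.36, not called without replicate 1 of both groups at -0.90 or without untreated replicate 1 at -0.96), the partner of Atg12, was lower. The calls changed to 3 higher and 13 lower on library totals, 6 higher and 1 lower without doxorubicin replicate 2, and 4 higher and 1 lower without doxorubicin replicate 3.

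In the contractile apparatus, 5 of 18 thick filament genes were higher and 2 lower (median 0.24, -0.41 on library totals), and 6 of 16 thin filament genes were higher and 2 lower (median 0.29, -0.41 on library totals). The thick filament list had 3 higher and 6 lower on library totals. Myl2, the ventricular regulatory light chain, had 2546, 2179 and 3262 CPM with doxorubicin and 578, 652 and 657 CPM without it (log2 fold change 2.08 ± 0.22). Tnnt2, cardiac troponin T, had 10947, 7906 and 7224 CPM with doxorubicin and 4073, 2980.2 and 3218 CPM without it (log2 fold change 1.34 ± 0.27), and Tnni1, the slow skeletal troponin I of the fetal heart, 779.6, 1587 and 1310.2 CPM with doxorubicin and 240.1, 429 and 451 CPM without it (log2 fold change 1.72 ± 0.30). Every doxorubicin library lay above the untreated ones for these. The myosin heavy chains did not pass the test: Myh6 had 8347, 5596 and 7758 CPM with doxorubicin and 6755, 6516 and 9786 CPM without it (-0.09 ± 0.36) and Myh7 4689, 2745 and 3783 CPM with doxorubicin and 4001, 4093 and 1514 CPM without it (0.22 ± 0.51), with overlap. Also higher were Myl3 (2.07 ± 0.40), Myl9 (2.68 ± 0.26), Tpm2 (1.49 ± 0.29) and Tmod1 (1.51 ± 0.26), and lower were Mylk3 (-1.95 ± 0.48) and Lmod3 (-6.00 ± 1.46), the kinase of the regulatory light chain and leiomodin 3, which builds thin filaments.

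The Z disc and costamere, which hold the filaments and tie them to the membrane, had 12 of 29 genes lower and 3 higher (median -1.08). The counts became 1 higher and 20 lower on library totals, 2 higher and 7 lower without replicate 1 of both groups, and 3 higher and 6 lower without doxorubicin replicate 3. Xirp1, a Xin repeat protein of the intercalated disc, had 187, 216 and 1385 CPM in the untreated libraries and 6.86, 3.45 and 3.67 CPM after doxorubicin (log2 fold change -7.01 ± 0.74). Synpo2, the Z disc protein myopodin, had 209, 162 and 301 CPM in the untreated libraries and 7.67, 8.81 and 7.46 CPM after doxorubicin (log2 fold change -4.81 ± 0.37; edgeR, Benjamini-Hochberg adjusted p = 1.21e-07). Untreated replicate 3 was far above its group for Xirp1 and less so for Synpo2, and no library overlapped. Mypn, myopalladin, had 46.4, 37.8 and 189 CPM without the drug and 3.03, 15.7 and 10.0 CPM with it (log2 fold change -3.24 ± 0.63), and Ankrd1, a stretch-responsive partner of titin, 7129.5, 4541 and 6432 CPM without the drug and 234, 363 and 121 CPM with it (log2 fold change -4.66 ± 1.33, not called without replicate 1 of both groups at -4.50 or without doxorubicin replicate 3 at -4.34). The risers were Sgcb (2.18 ± 0.29) and Des (1.45 ± 0.36, not called on library totals at 0.80), a sarcoglycan and the intermediate filament desmin, which smooth muscle shares, and Myoz2, named here after its value was seen.

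For calcium handling and channel genes the numbers called stand beside 15.2% higher and 12.3% lower of all genes tested. Of 32 calcium release and reuptake genes 6 rose and 8 fell (median -0.16). This list had 4 higher and 14 lower on library totals. Casq2, the calcium buffer of the sarcoplasmic reticulum, had 4064, 2794 and 2658 CPM with doxorubicin and 1085, 958 and 662 CPM without it (log2 fold change 1.81 ± 0.26). Slc8a1, the sodium-calcium exchanger, had 58.5, 50.6 and 39.5 CPM with doxorubicin and 352, 291 and 398 CPM without it (log2 fold change -2.81 ± 0.48), and Pln, the brake on the calcium pump, 309.9, 132 and 164 CPM with doxorubicin and 1266, 1100.2 and 718 CPM without it (log2 fold change -2.35 ± 0.64). The store protein was higher and the exchanger and the brake lower in every doxorubicin library. Also lower were Cacnb2 (-3.62 ± 0.65) and Itpr1 (-1.32 ± 0.17), a calcium channel subunit and an inositol trisphosphate receptor, and higher Casq1 (2.40 ± 0.24) and S100a1 (2.29 ± 0.36). Of 30 sodium, potassium and gap junction channel genes 4 rose and 6 fell (median -0.45), with Kcnj5 (-4.57 ± 1.03), Kcna4 (-4.51 ± 0.89) and Gjc1 (-1.25 ± 0.28) lower (a potassium channel of the atrial acetylcholine current, a channel of the transient outward current and connexin 45) and Scn4b (3.36 ± 0.75) higher (a sodium channel subunit). These counts were 3 higher and 12 lower on library totals. Kcnd3, another channel of the transient outward current, was not called (0.69 ± 0.66).

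Of 31 cardiac transcription factors 12 were lower and 0 higher (median -1.17). The numbers of genes were 0 higher and 19 lower on library totals, and 0 higher and 5 lower in a fit of only the 6 libraries. Tbx20, a T-box factor of the myocardium, had 201, 197 and 101 CPM in the untreated libraries and 39.6, 35.0 and 42.9 CPM after doxorubicin (log2 fold change -2.09 ± 0.29). Myocd, the coactivator myocardin, had 144, 118 and 127 CPM in the untreated libraries and 6.76, 18.6 and 10.8 CPM after doxorubicin (log2 fold change -3.42 ± 0.50). Nkx2-5, the homeobox factor that marks heart muscle, had 4.86, 20.1 and 60.5 CPM in the untreated libraries and 0, 2.01 and 1.37 CPM after doxorubicin (log2 fold change -4.56 ± 0.995). Untreated libraries of Nkx2-5 spread from 4.86 to 60.5 CPM and all doxorubicin libraries lay below them. Prox1 (-2.30 ± 0.41), Tbx5 (-2.23 ± 0.45) and Hand2 (-1.67 ± 0.37) fell too.

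Among hormones and receptors of the heart, 7 of 28 natriuretic, adrenergic and hormone receptor genes rose and 5 fell (median 0.10, -0.55 on library totals). The list counts changed to 3 higher and 9 lower on library totals, and 3 higher and 5 lower without untreated replicate 1 (median -0.05) or without untreated replicate 2 (median -0.01). Nppa, the precursor of atrial natriuretic peptide, had 19769, 24763 and 31704 CPM with doxorubicin and 2363, 2744 and 3363 CPM without it (log2 fold change 3.17 ± 0.51). Nppb, the precursor of the B-type peptide, had 561, 1045 and 613 CPM with doxorubicin and 339, 490.3 and 1324 CPM without it (0.04 ± 0.36, not called), with untreated replicate 3 the highest of the 6. Nppc, the C-type precursor, was at 3.53, 1.24 and 1.68 CPM with doxorubicin and 0 in each untreated library, at least 44.9-fold higher against the floor. So Nppa and Nppc were apart between groups and Nppb was not. Chrm2, the muscarinic receptor of the heart, had 67.7, 58.0 and 16.1 CPM without the drug and 2.02, 2.27 and 2.74 CPM with it (log2 fold change -4.33 ± 0.50). Lower as well were Ednra (-3.30 ± 0.76) and Pde4d (-2.93 ± 0.54), the endothelin A receptor and a cyclic AMP phosphodiesterase, and Gnas (1.62 ± 0.19), the stimulatory G protein, was higher.

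Of 40 growth factor and TGF-beta family ligands 8 rose and 5 fell, against 15.2% and 12.3% of all genes tested (median 0.55, -0.15 on library totals). Its counts became 5 higher and 8 lower on library totals, and 7 higher and 2 lower without doxorubicin replicate 3. Inhbb, a subunit of activin B, had 33.5, 53.9 and 33.7 CPM with doxorubicin and 0.341, 0.793 and 1.43 CPM without it (log2 fold change 5.56 ± 0.76), and Fst, the activin antagonist follistatin, had 56.3, 117 and 84.0 CPM with doxorubicin and 8.73, 5.79 and 15.0 CPM without it (log2 fold change 3.13 ± 0.45). Ligand and antagonist were both higher without overlap. Gdf15, a stress hormone that p53 and ATF4 are known to induce, had 20.8, 185 and 117 CPM with doxorubicin and 4.86, 6.86 and 22.1 CPM without it (log2 fold change 3.26 ± 0.86), and doxorubicin replicate 1 fell just below untreated replicate 3. Igf2 (2.55 ± 0.33), Fstl3 (2.65 ± 0.63) and Bmp4 (1.24 ± 0.28, not called on library totals at 0.54) rose too. Of 20 YAP and calcineurin response genes 9 fell and 0 rose (median -0.70): Rcan1, the feedback inhibitor of calcineurin, had 111, 121 and 666 CPM in the untreated libraries and 11.4, 22.0 and 18.9 CPM after doxorubicin (log2 fold change -4.10 ± 0.58), and Ccn2, a matricellular target of YAP, 602, 493 and 2028 CPM in the untreated libraries and 80.3, 265 and 86.5 CPM after doxorubicin (log2 fold change -2.85 ± 0.63). Untreated replicate 3 was the highest library for both. Of 30 immediate early genes 2 rose and 5 fell (median -0.09), with Klf4 (2.16 ± 0.50) higher and Dusp1 (-2.39 ± 0.61, not called without untreated replicate 3 at -1.27) and Myc (-0.88 ± 0.26, not called without replicate 1 of both groups at -0.80, without doxorubicin replicate 1 at -0.77 or without untreated replicate 3 at -0.72) lower. The calls changed to 2 higher and 9 lower on library totals, 1 higher and 0 lower in a fit of only the 6 libraries (median -0.18), 2 higher and 2 lower without doxorubicin replicate 1, 2 higher and 3 lower without doxorubicin replicate 3, and 7 higher and 0 lower without untreated replicate 3 (median 0.69).

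Of 38 RNA polymerase II and general factor genes 4 rose and 4 fell, against 15.2% and 12.3% of all genes tested (median -0.26); Polr2a, the catalytic subunit, had 294, 281 and 274 CPM with doxorubicin and 151, 136 and 84.3 CPM without it (log2 fold change 1.19 ± 0.31, not called on library totals at 0.49), and Tbp (-1.45 ± 0.33), the TATA-binding protein gene, was lower. The same list had 0 higher and 25 lower on library totals, and 3 higher and 7 lower without doxorubicin replicate 1 or without untreated replicate 3. Of 32 Mediator subunits 5 fell and 0 rose, against the same shares (median -0.16), among them Med21 (-1.82 ± 0.37) and Med4 (-1.43 ± 0.30). The counts became 0 higher and 18 lower on library totals, and 0 higher and 8 lower without doxorubicin replicate 1. In histone methyltransferases and demethylases 10 of 35 fell and 0 rose (median -0.43), with Nsd2 (-0.87 ± 0.17), Suz12 (-1.10 ± 0.29, not called without replicate 1 of both groups at -0.85) and Ezh2 (-1.08 ± 0.33, not called without replicate 1 of both groups at -0.93, without doxorubicin replicate 2 at -1.06, without doxorubicin replicate 3 at -0.92 or without untreated replicate 1 at -0.81), a writer of histone H3 lysine 36 methylation and subunits of Polycomb repressive complex PRC2. This list had 0 higher and 27 lower on library totals, 0 higher and 6 lower without replicate 1 of both groups or without doxorubicin replicate 2, 0 higher and 0 lower in a fit of only the 6 libraries, and 0 higher and 5 lower without doxorubicin replicate 3. Acetylation and remodelling genes had 10 of 43 lower and 2 higher (median -0.55). Hdac9, a class IIa deacetylase, had 10.1, 6.07 and 11.7 CPM in the untreated libraries and 0.707, 0.567 and 0.809 CPM after doxorubicin (log2 fold change -3.74 ± 0.55), and Chd2, a remodeller, 107, 82.3 and 109 CPM in the untreated libraries and 25.1, 37.8 and 32.9 CPM after doxorubicin (log2 fold change -1.64 ± 0.24). Both were lower in all doxorubicin libraries, whereas Chd3 (1.28 ± 0.20, not called on library totals at 0.62), a subunit of the NuRD complex, was higher. These counts were 0 higher and 33 lower on library totals. Splicing regulators had 9 of 40 lower and 0 higher (median -0.52). Rbm20, the splicing factor of titin, had 109, 128 and 181 CPM in the untreated libraries and 13.9, 29.0 and 29.4 CPM after doxorubicin (log2 fold change -2.53 ± 0.46), with the groups apart, and Ptbp2 (-1.500 ± 0.22), Srsf4 (-1.16 ± 0.21) and Rbm24 (-1.66 ± 0.44) fell. The numbers of genes were 0 higher and 29 lower on library totals, and 0 higher and 5 lower without replicate 1 of both groups. 

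Beside the fibroblast markers given above, of 39 collagens and matrix glycoproteins 14 rose and 1 fell (median 0.64, 0.05 on library totals). The list counts changed to 4 higher and 6 lower on library totals, and 8 higher and 1 lower without doxorubicin replicate 2, without untreated replicate 1 or without untreated replicate 2. Sparc, a collagen-binding glycoprotein, had 10281, 15586 and 11188 CPM with doxorubicin and 3773, 4186 and 4893 CPM without it (log2 fold change 1.53 ± 0.21). Col1a1, the main chain of type I collagen, had 14856, 37437 and 25723 CPM with doxorubicin and 10726, 12831 and 21483 CPM without it (0.79 ± 0.32, not called), with overlap. Fbn2, fibrillin 2, fell (-2.03 ± 0.37). Of 29 matrix proteases and inhibitors 7 rose and 3 fell (median 0.51, -0.14 on library totals): Mmp2, a gelatinase, had 1248, 2193 and 1901 CPM with doxorubicin and 329.7, 490.4 and 418 CPM without it (log2 fold change 2.11 ± 0.30) and Timp1, an inhibitor of such enzymes, 214, 327 and 191 CPM with doxorubicin and 79.1, 78.9 and 78.1 CPM without it (log2 fold change 1.63 ± 0.23), while Adamts9 (-2.66 ± 0.31), a proteoglycan-cleaving protease, fell. Its counts became 2 higher and 6 lower on library totals, and 4 higher and 3 lower without untreated replicate 1. 

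Of 14 BCL2 family genes 2 rose and 2 fell, against 15.2% and 12.3% of all genes tested (median -0.06). The calls changed to 1 higher and 0 lower without doxorubicin replicate 2, and 1 higher and 1 lower without doxorubicin replicate 3, without untreated replicate 1 or without untreated replicate 2. Pmaip1, the p53-induced killer protein NOXA, had 200.4, 139 and 88.0 CPM with doxorubicin and 34.5, 26.02 and 33.0 CPM without it (log2 fold change 2.19 ± 0.30), with no overlap, and Bax, a pore-forming effector, had 36.4, 79.9 and 78.7 CPM with doxorubicin and 14.9, 23.5 and 40.9 CPM without it (log2 fold change 1.30 ± 0.41, not called on library totals at 0.67, without doxorubicin replicate 2 at 1.12, without doxorubicin replicate 3 at 1.14, without untreated replicate 1 at 0.95 or without untreated replicate 2 at 1.16). Of 26 genes for death receptors, pyroptosis and necroptosis 1 rose and 1 fell (median 0.19, -0.43 on library totals). The same list had 1 higher and 5 lower on library totals. Tnfrsf1a (-1.19 ± 0.17), the TNF receptor, was lower, while the death receptor Fas was not called (0.67 ± 0.31). Endoplasmic reticulum stress and ATF4 genes had 1 of 30 higher and 4 lower (median -0.11), with Xbp1 (-1.22 ± 0.18) and Herpud1 (-1.09 ± 0.26) lower. The counts became 1 higher and 14 lower on library totals, and 1 higher and 2 lower without doxorubicin replicate 2 or without doxorubicin replicate 3. Of 32 heat shock and co-chaperone genes 3 rose and 8 fell (median -0.45). The risers Hspa9 (1.88 ± 0.28) and Hspd1 (1.72 ± 0.29) are chaperones of the mitochondrial matrix, and Hspb6 (1.497 ± 0.26) is a small heat shock protein of muscle. The genes that fell included Hspb3 (-4.25 ± 0.83), Dnajb4 (-2.31 ± 0.33) and Dnajb5 (-2.72 ± 0.46), a small heat shock protein and J-domain co-chaperones of the cytosol. This list had 3 higher and 19 lower on library totals.

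**Figure D3:**
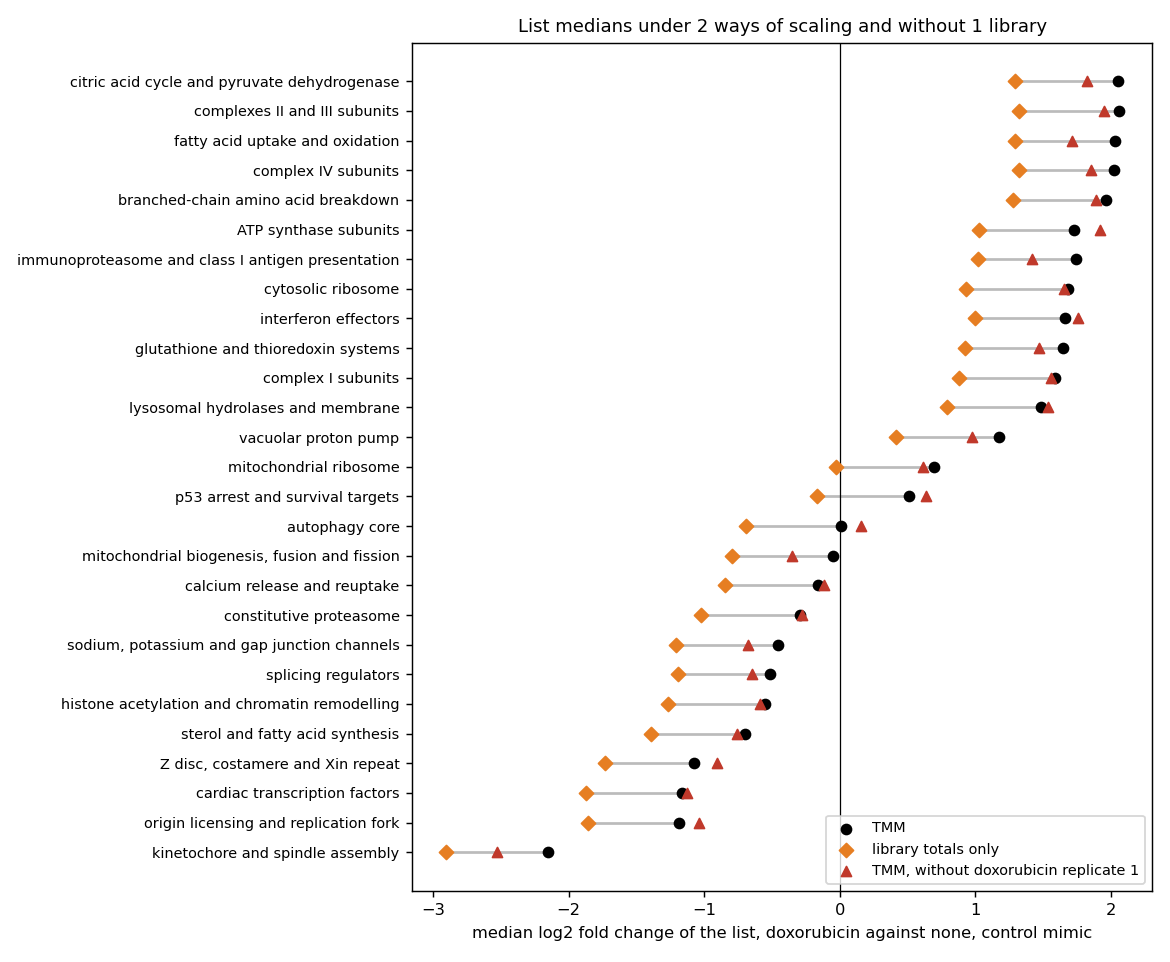
Median log2 fold change (x axis) of 27 gene lists (rows) with TMM scaling (circles), with library totals only (diamonds) and with TMM after leaving out doxorubicin replicate 1 (triangles). Library totals shift each list to the left by a similar amount and turn the sign for the mitochondrial ribosome, p53 target and autophagy lists.

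Cells with a miR-222, miR-455 or combined mimic met doxorubicin in 18 further libraries, none shared with the 6 above, which allows the same question to be asked again in other samples. In the mean over those 3 arms 2824 genes rose and 2952 fell (19.7% and 20.6% of genes, 40.4% in all; 48.9% of calls higher, and 20.2% on library totals). Of the 2171 genes higher with the control mimic 2034 (93.7%) had the same sign and 1600 (73.7%) were called higher, and 19 were called lower. Of the 1765 lower genes 1685 (95.5%) had the same sign, 1285 (72.8%) were called lower and 8 higher. These genes were chosen by their call with the control mimic, and the median log2 fold change of the risers was 1.76 with the control mimic and 0.98 with a mimic, and that of the fallen genes -1.29 and -0.75. Across the 14303 genes, which are not independent replicates, the log2 fold changes of both comparisons had a Pearson r of 0.67 and a Spearman rho of 0.63.

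Named genes of each group show the range. Depp1 was at -6.80 ± 0.64 with the control mimic and -6.51 ± 0.37 with a mimic, Gata5 at -5.28 ± 0.74 and -5.61 ± 0.42, and Becn1 at 1.55 ± 0.18 and 1.55 ± 0.10. For these 3 the difference between the arms was -0.29 ± 0.67, 0.34 ± 0.80 and 0.00 ± 0.20. Sdha was at 2.21 ± 0.18 and 1.47 ± 0.10, Irf7 at 4.08 ± 0.36 and 2.86 ± 0.20 and Top2a at -6.09 ± 0.88 and -3.93 ± 0.45. For p53 targets Cdkn1a was at 2.59 ± 0.61 and 0.27 ± 0.33, and Mdm2 at 1.87 ± 0.45 and 0.29 ± 0.25. In edgeR's quasi-likelihood F test of the difference itself, the Benjamini-Hochberg adjusted p was 0.119 for Cdkn1a, 0.149 for Mdm2, 0.137 for Irf7 and 0.0862 for Sdha, so none of these differences passed.

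The test of the difference called 43 genes with a higher and 12 with a lower effect under the control mimic (0.301% and 0.0839% of genes), 55 in all (0.385%; 78.2% higher, and 28.6% on library totals, 16 higher and 40 lower). Of these, 46 were also called with the control mimic: 36 rose and had a difference above 0, and 10 fell and had a difference below 0. The count of 55 rested on single libraries: it was 9 without doxorubicin replicate 1, 86 without replicate 2 and 1 without replicate 3, and 1, 0 and 55 without untreated replicates 1, 2 and 3. The fit without untreated replicate 2, in edgeR, had 1916 genes at an unadjusted p under 0.05, against 2324 with all libraries.

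**Figure D4:**
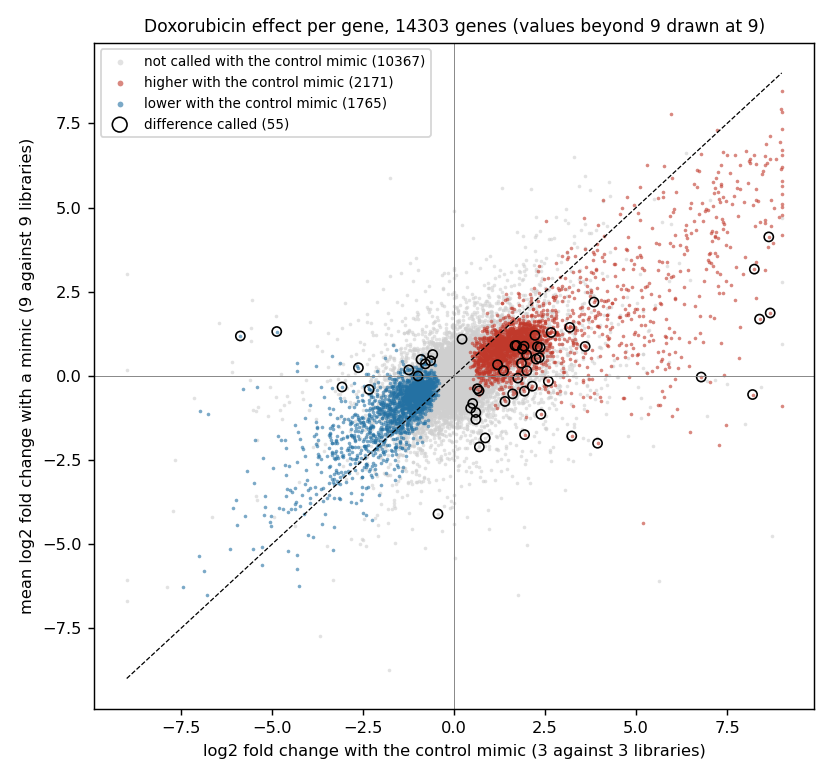
Log2 fold change of each of 14303 genes with the control mimic (x axis) against the mean over the 3 mimic arms (y axis), coloured by the call with the control mimic; open circles mark the 55 genes whose difference was called and the dashed line is equality. Most called genes lie in the quadrants of equal sign, with 2034 of 2171 risers and 1685 of 1765 fallen genes on the same side of 0.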

How the data were processed

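PolyA RNA of 24 libraries was measured, of which 6 are described. The authors deposited 1 table of estimated counts for 21767 gene symbols, not whole for 7.35% of values, which were rounded; per the submitters' processing notes Salmon, DESeq2 and the build Rnor_6.0 were used, with versions and steps not given in the sources used here. Analysis used R 4.3.3 and edgeR 4.0.16: filterByExpr (14303 genes), TMM scaling, a means model of 8 groups over 24 libraries, the quasi-likelihood F test and Benjamini-Hochberg adjustment. Each standard error was taken from F, as the size of the log2 fold change over its root. The mimic effect is the mean over the 3 mimic arms. No library was dropped, no 2 libraries of either group of the 6 were alike within sampling noise, and floors cover counting error only. Alternatives were DESeq2 1.42.0 and its size factors, library totals, mitochondrial genes removed before scaling, no filter, 1 CPM in 3 libraries, a replicate block, only the 6 libraries, replicate 1 of both groups left out (the library with the fewest genes in each), and each library left out.

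Named genes were the 12 highest and 12 lowest called genes with a gene symbol, at least 5 CPM and no overlap, up to 6 members of each of 62 lists with the smallest p, marker genes, and a set of known genes of the drug response; of the 392 genes named, those dwelt on were chosen after their values were seen. Members and lists were chosen with earlier results of these data known, so counts over lists are descriptions. Some genes of the naming rule are not reported here. The test was checked on simulated data. Promoter sequences and motifs came from RefSeq windows of the rat build GRCr8, matched by symbol or older symbol (331 by the latter), and only lists with at least 80% of tested genes matched were counted.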

Additional observations from a re-analysis of the deposited data

Results flagged for a closer look

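For 10 of the named genes the effect of doxorubicin with the control mimic differed from the mean effect with a mimic by edgeR's quasi-likelihood test of that difference (Benjamini-Hochberg adjusted p under 0.05), and each was higher with the control mimic. None of the 10 kept its call with the replicate block, or without doxorubicin replicate 3, untreated replicate 1 or untreated replicate 2. Values are the difference in log2 fold change ± SE. Among p53 targets Rrm2b had 1.52 ± 0.32 and Tp53inp1 2.39 ± 0.46, where Tp53inp1 was at 1.93 ± 0.40 with the control mimic and -0.46 ± 0.22 with a mimic. For detoxifying enzymes Akr1b10 had 1.65 ± 0.34, Ephx1 1.74 ± 0.32 and the mitochondrial peroxiredoxin Prdx3 1.02 ± 0.22. Bckdk, the kinase of the branched-chain dehydrogenase, had 0.82 ± 0.16, and Dkk3, a secreted relative of Wnt inhibitors, 1.42 ± 0.29. Ltk had 5.08 ± 0.98 and Ppp2r2c 4.52 ± 0.83, and both were close to 0 CPM in untreated cells, where fitted sizes depend on the prior count. Slc4a1, the anion exchanger of red cells, had 8.76 ± 1.49 with 0, 2.94 and 1.99 CPM with doxorubicin and 0 in each untreated library, so the drug group overlapped the untreated one in replicate 1.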

How the results depend on the processing

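The direction of every one of the 346 named called genes held under the alternatives run, where the gene was tested, except Psmb1 on library totals (-0.0688), and 306 of them kept their call there. Named genes were chosen largely by small p or large change, which favours such stability. Of all 3936 called genes 3864 kept their direction on library totals and 2843 were called there. The count of called genes for the control mimic, 3936, ran from 2892 to 4297 when 1 library was left out and was 3040 without replicate 1 of both groups, the library with the fewest genes in each, 3545 with a replicate block and 4662 by DESeq2. A fit of only the 6 libraries, which took the spread from them alone, called 1437 (851 higher, 586 lower). Why it called fewer was not tested. For the difference between the control mimic and the mimic mean, 55 became 605 by DESeq2, 13 with no filter, 3 without replicate 1 of both groups, 0 to 86 when 1 library was left out and 0 with the replicate block in edgeR, with 2095 genes at an unadjusted p under 0.05 in that fit. The cause was not tested. Replicate numbers were not treated as pairs: the deviations of same-numbered libraries correlated at 0.42, 0.07 and 0.37, and doxorubicin replicate 2 correlated best with untreated replicate 3. In simulated data of 14303 genes, with 100 changed per size, the test recovered 41 genes changed 4-fold and 6 changed 2-fold. Depth and the number of libraries were not varied there. A gene that was not called may thus still have changed, also by 4-fold.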

Other observations

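Of 20 circadian clock genes 5 fell and 0 rose (median -0.33). Clock, the activator that drives the cycle, had 144, 85.6 and 129 CPM in the untreated libraries and 60.2, 36.7 and 29.5 CPM after doxorubicin (log2 fold change -1.51 ± 0.29), without overlap, and its relative Npas2 had 5.62, 5.67 and 5.94 CPM in the untreated libraries and 0, 1.80 and 1.43 CPM after doxorubicin (log2 fold change -2.35 ± 0.58). Arntl, their partner, had -0.83 ± 0.44 and was not called. These counts were 0 higher and 3 lower without untreated replicate 3.

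Of 38 Notch and Wnt pathway genes 5 rose and 5 fell, against 15.2% and 12.3% of all genes (median 0.03, -0.60 on library totals). Notch1, a receptor, had 12.5, 30.3 and 26.4 CPM with doxorubicin and 5.92, 6.51 and 9.51 CPM without it (log2 fold change 1.66 ± 0.35), and Axin2, a feedback inhibitor of Wnt signalling, 6.36, 14.9 and 5.97 CPM with doxorubicin and 2.21, 1.47 and 0.402 CPM without it (log2 fold change 2.74 ± 0.62). The groups were apart for both. Lgr4, a receptor that amplifies Wnt signals, had 80.4, 64.2 and 43.0 CPM in the untreated libraries and 16.1, 18.6 and 22.2 CPM after doxorubicin (log2 fold change -1.72 ± 0.29). The numbers of genes were 4 higher and 11 lower on library totals.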
